A study of Homo sapiens with 6 samples.

Results

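The genes described here are the G1 cyclins CCND1, CCND2, CCND3, CCNE1 and CCNE2, their kinases CDK2 and CDK4, the inhibitors CDKN1A and CDKN1B, and SERTAD1, a binding partner of CDK4. The cells were MOLM-14, a line grown from human acute myeloid leukaemia that carries the MLL-AF9 rearrangement. The CA group was given cortistatin A, an inhibitor of the Mediator kinases CDK8 and CDK19, at 25 nM for 3 h, and the DMSO group was given the solvent for 3 h. Each group had 3 samples from wells of 1 cell line, and RNA of every sample was read on its own Affymetrix U133 Plus 2.0 array. All probe sets annotated to the 10 genes were taken, which gave 19 probe sets of 54613 that were not controls, and 10 of 19775 named genes. The genes were chosen by their role in G1 with their DMSO levels and their changes in CA on these same 6 arrays already known. Levels, changes and calls of the 10 genes are therefore descriptions of these arrays and support nothing beyond them.

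A cell in G1 commits to DNA replication through cyclin-dependent kinases. D-type cyclins, which respond to growth signals, activate CDK4 and CDK6, and E-type cyclins activate CDK2 later in G1. Both kinase pairs phosphorylate the retinoblastoma protein RB, which releases E2F transcription factors that activate the genes of S phase, among them the E-type cyclins themselves. CDKN1A (the protein p21, a target of p53) and CDKN1B (p27) bind and restrain cyclin-CDK2 complexes, and the SCF-SKP2 ubiquitin ligase removes p27 as cells enter S phase. SERTAD1 binds CDK4 and also acts with E2F and its partner DP as a transcriptional coactivator.

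CCNE2 fell to 0.700-fold and SERTAD1 to 0.712-fold in CA relative to DMSO, while CDKN1B rose 1.31-fold. Of the 10 genes, 2 passed an adjusted p of 0.05 as lower, where 0.0556% of all genes did, and 1 passed as higher, where 0.839% did (limma with Benjamini-Hochberg adjustment over 19775 genes at the brightest probe set of each). In both directions together this was 3 of 10, beside 0.895% of all genes; since the genes were chosen with these changes known, nothing is read from that share. Without any 1 array other than CA replicate 3, 0 of the 10 genes passed, and between 1 and 9 of all genes did. Without CA replicate 3, 3 of the 10 genes and 112 of all genes passed, against 177 of all genes with all 6 arrays. CCNE1, CCND1, CCND3 and CDKN1A had changes of between -0.16 and 0.20 on the log2 scale that did not pass, and CCND2, CDK2 and CDK4 had groups that overlapped. The median log2 change was -0.079 over the 10 genes and 0.0037 over all genes.

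Upstream sequences are shown for SERTAD1 and CDKN1B, the genes that passed in opposite directions and that have an entry in the RefSeq promoter table (GRCh38.p14); 6 of the 10 genes matched that table, with 8 entries. Each run is the 250 bases before the annotated start, 5′ to 3′ on the gene's strand. Capitals mark every match to CCAAT or GGGCGG on either strand. The first lies at chr19:40425993-40426242 on the minus strand and the second at chr12:12717118-12717367 on the plus strand.
SERTAD1: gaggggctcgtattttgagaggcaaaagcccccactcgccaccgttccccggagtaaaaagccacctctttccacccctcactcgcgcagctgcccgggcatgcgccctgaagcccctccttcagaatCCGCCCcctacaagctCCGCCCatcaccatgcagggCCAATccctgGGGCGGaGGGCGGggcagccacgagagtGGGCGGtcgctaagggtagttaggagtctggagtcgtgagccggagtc
CDKN1B: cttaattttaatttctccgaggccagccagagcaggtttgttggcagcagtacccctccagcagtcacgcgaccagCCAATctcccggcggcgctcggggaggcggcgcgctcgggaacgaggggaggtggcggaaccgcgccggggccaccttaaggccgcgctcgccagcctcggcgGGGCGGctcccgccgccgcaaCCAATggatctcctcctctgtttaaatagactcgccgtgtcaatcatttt

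The SERTAD1 window held 5 matches to GGGCGG and 1 to CCAAT. The CDKN1B window held 1 match to GGGCGG and 2 to CCAAT, the nearer of which begins 50 bases before the start. Both motifs are common: GGGCGG occurred in 42.6% and CCAAT in 32% of the 35116 windows of this length in the table. The E2F forms TTTGGCGC and TTTCCCGC, the cyclic AMP response element TGACGTCA and the AP-1 site TGACTCA were searched on both strands and had 0 matches in the 8 windows of these genes. Those letters occurred in 0.55%, 1.39%, 1.65% and 4.2% of all windows. A match or its absence describes these windows of letters and says nothing of what binds there.

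The arrays were alike in overall signal, with median log2 values between 5.03 and 5.08 and correlations between arrays over the 19775 genes of 0.997 to 0.999. CA replicate 3 stood apart on the first principal component, at 19.7, with the other 5 arrays between -8.25 and 0.73. Of the myeloid markers, LYZ and FLT3 were among the brightest probe sets, at mean log2 values of 12.29 and 10.36 in CA and 12.46 and 10.32 in DMSO. The other 4 measured markers of this list were dimmer, with SPI1 lowest at 5.37 in CA and 5.49 in DMSO, and 2 listed markers, CD33 and CD68, were not analysed here. Markers of T, NK and B cells lay between 3.68 and 7.65 in CA and 3.94 and 7.63 in DMSO. Those of epithelial cells and fibroblasts lay between 2.66 and 9.25 in CA and 2.60 and 9.27 in DMSO, with KRT18 the brightest. Of the 19 measured markers, HBB and KLF1 of the erythroid list included, 0 passed in limma, beside 0.895% of all genes. At an unadjusted p under 0.05 HBB had a log2 change of 0.25 and the B cell gene MS4A1 one of -0.26. Of all genes 7.09% were higher and 4.50% lower at that limit. The other HBB probe sets gave 0.036, 0.079 and -0.019, with overlapping groups. The other MS4A1 probe sets gave 0.17, -0.17 and -0.063, also with overlapping groups. The part of these markers in the results was not tested.

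Positions of the genes are those of RefSeq on GRCh38.p14, since the deposited files name no build. Values below are RMA log2 values of one probe set, on which 1 unit is a doubling. Brightness depends on the probes, so the level of one probe set is not set against that of another. Less RNA per cell and fewer cells carrying it cannot be told apart in such bulk samples.

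**Figure D1:**
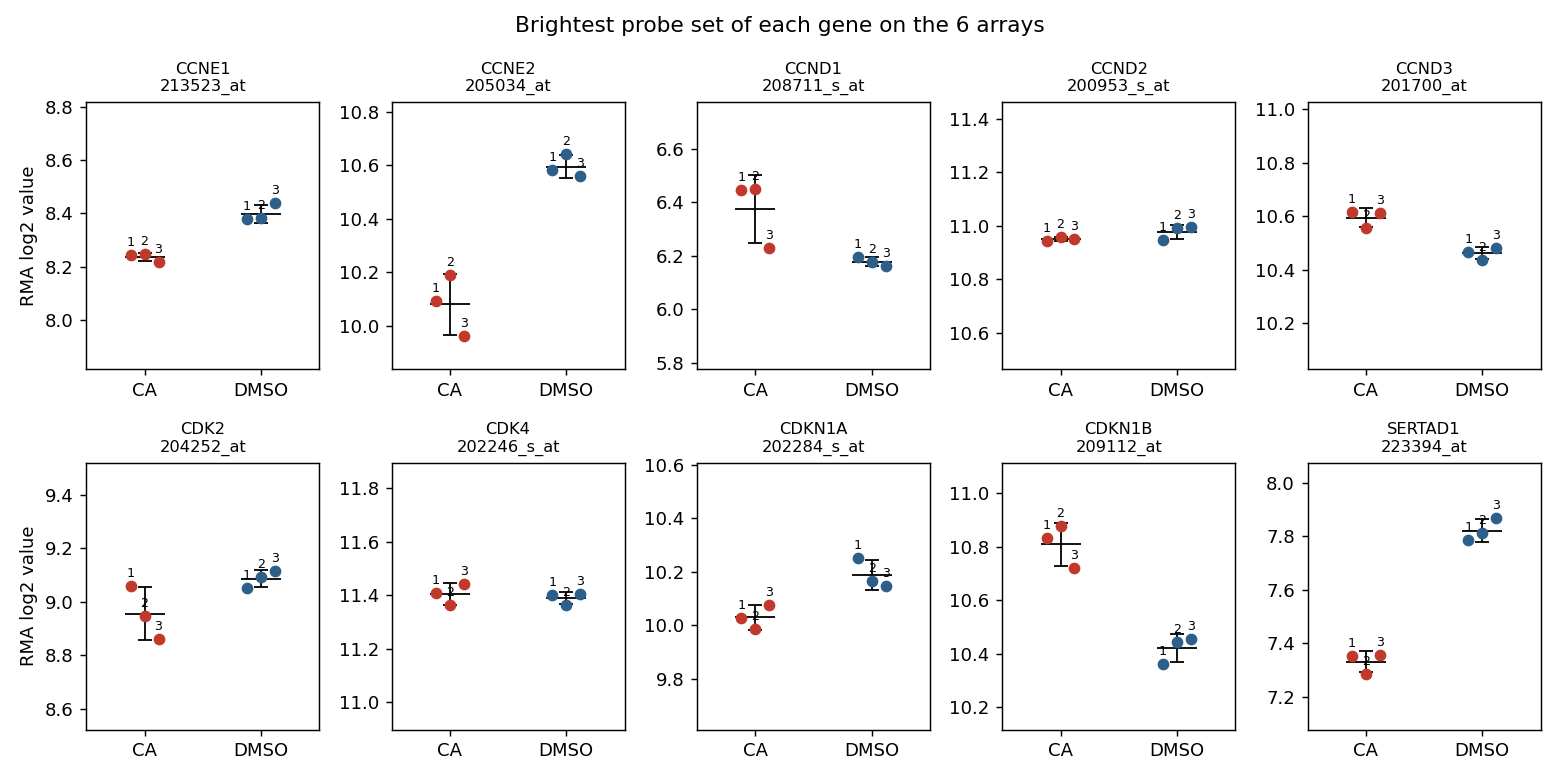
RMA log2 value of the brightest probe set of each of the 10 genes (vertical axis, all panels span 1 log2 unit) on the 3 CA and 3 DMSO arrays; numbered points are arrays by replicate, and bars are the mean and SD. CCNE2, SERTAD1 and CDKN1B show the widest gaps between the groups, and the CDK4 values of both groups lie between 11.36 and 11.44.

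Cyclin E2, the product of CCNE2, is one of a pair of E-type cyclins that activate CDK2. The gene lies on chromosome 8. At its brighter probe set (205034_at) CCNE2 had log2 values of 10.09, 10.19 and 9.96 in CA, against 10.58, 10.64 and 10.56 in DMSO. All CA values lay below all DMSO values, by more than the spread within either group. The means were 10.08 ± 0.11 in CA and 10.60 ± 0.04 in DMSO (SD, n = 3 each), a log2 change of -0.51 with a 95% interval of -0.68 to -0.35 in limma, or a fold of 0.700 (0.625 to 0.783). Its adjusted p over all genes was 0.0307, and its fall was the third largest of the 19775 genes. The call was lost without any 1 array other than CA replicate 3, at adjusted p-values of 0.0793 to 0.168.

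The other CCNE2 probe set (211814_s_at) had log2 values of 6.49, 6.73 and 6.65 in CA and of 6.74, 7.02 and 6.74 in DMSO. The groups were again apart in the same direction, but the highest CA value and the lowest DMSO values differed by less than the spread within a group. The log2 change there was -0.21 (95% interval -0.45 to 0.03). With both CCNE2 probe sets averaged, the log2 change was -0.36 and the gene did not pass (adjusted p = 0.119).

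CCNE1 encodes the other E-type cyclin, cyclin E1 (chr19:29811991-29824312). Its brighter probe set (213523_at) had log2 values of 8.24, 8.25 and 8.22 in CA and of 8.38, 8.38 and 8.44 in DMSO. The groups did not overlap, and the replicates were close, with an SD of 0.016 in CA and 0.034 in DMSO. The fold was 0.893 (95% interval 0.832 to 0.959), and CCNE1 did not pass over all genes (adjusted p = 0.221). Its second probe set (242105_at) was dim, at a mean of 4.01 in both groups, and the values of CA, 3.87 to 4.16, lay within those of DMSO, 3.81 to 4.21. Whether CCNE2 changed more than CCNE1 was not tested.

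SERTAD1 (chr19:40421589-40425992) has 1 probe set (223394_at). Its log2 values were 7.35, 7.29 and 7.36 in CA and 7.79, 7.81 and 7.87 in DMSO. Every CA value lay far below every DMSO value relative to the SD within a group, which was 0.040 in CA and 0.042 in DMSO. The log2 change was -0.49 (95% interval -0.60 to -0.38), and the adjusted p of 0.0136 was the smallest of the 10 genes. Leaving out 1 array other than CA replicate 3 put it between 0.0767 and 0.0993.

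CDKN1B (chr12:12717368-12722369), which encodes the inhibitor p27, also has 1 probe set (209112_at). It had log2 values of 10.83, 10.88 and 10.72 in CA and of 10.36, 10.44 and 10.46 in DMSO. Every CA value lay above every DMSO value, and CA replicate 3 was the closest to the DMSO arrays. The log2 change was 0.39 (95% interval 0.25 to 0.53), a fold of 1.31 (1.19 to 1.44), and the adjusted p was 0.0455, just inside the threshold. It lay between 0.167 and 0.232 without any 1 array other than CA replicate 3.

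CDKN1A (chr6:36676463-36687332) encodes the related inhibitor p21 and has 1 probe set (202284_s_at). Its log2 values were 10.03, 9.98 and 10.08 in CA and 10.25, 10.17 and 10.15 in DMSO. All CA values lay below all DMSO values. The fold was 0.896 (95% interval 0.823 to 0.976), and CDKN1A did not pass (adjusted p = 0.323).

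Among the D-type cyclins, CCND3 (chr6:41934933-42050035) had a bright probe set (201700_at) with log2 values of 10.62, 10.55 and 10.61 in CA and of 10.47, 10.44 and 10.48 in DMSO. The CA arrays were all higher, by a fold of 1.10 (95% interval 1.02 to 1.18), without passing (adjusted p = 0.330). The second CCND3 probe set (1562028_at) ranged from 4.86 to 4.98 in CA and from 4.59 to 5.25 in DMSO, so that the CA values lay inside the DMSO range.

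CCND1, the cyclin D1 gene (chr11:69641156-69654474), had log2 values of 6.45, 6.45 and 6.23 in CA and of 6.20, 6.18 and 6.16 in DMSO at its brighter probe set (208711_s_at). The CA arrays were higher, with CA replicate 3 close to the highest DMSO array. The fold was 1.15 (95% interval 1.02 to 1.29, adjusted p = 0.361). At the other CCND1 probe set (208712_at) the values were 6.10, 5.98 and 5.78 in CA and 5.77, 5.76 and 5.84 in DMSO, and CA replicate 3 lay within the DMSO range.

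CCND2, the cyclin D2 gene (chr12:4273762-4305353), was measured by 4 probe sets, and the groups overlapped at each. The brightest (200953_s_at) had log2 values of 10.94, 10.96 and 10.95 in CA and of 10.95, 10.99 and 11.00 in DMSO. Its fold was 0.981, with an interval of 0.916 to 1.05. The other 3 probe sets had log2 changes of 0.016, -0.29 and -0.057. The widest of these, at 200952_s_at, moved most with DMSO replicate 1, which read 8.47 where the other DMSO arrays read 7.83 and 7.60 and the CA arrays 7.66, 7.66 and 7.70. Without that array its log2 change was -0.043.

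CDK4, the kinase partner of the D-type cyclins (chr12:57747727-57752310), had log2 values of 11.41, 11.36 and 11.44 in CA and of 11.40, 11.36 and 11.40 in DMSO. The groups overlapped almost fully, at a fold of 1.01 (95% interval 0.940 to 1.09).

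CDK2, the kinase partner of the E-type cyclins (chr12:55966830-55972789), had log2 values of 9.06, 8.95 and 8.86 in CA and of 9.05, 9.09 and 9.12 in DMSO at its brightest probe set (204252_at). CA replicate 1 lay within the DMSO range, while the other CA arrays were lower. The fold was 0.913 (0.824 to 1.01, adjusted p = 0.483). The other CDK2 probe sets gave log2 changes of 0.058 and -0.071, with overlapping groups.

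**Figure D2:**
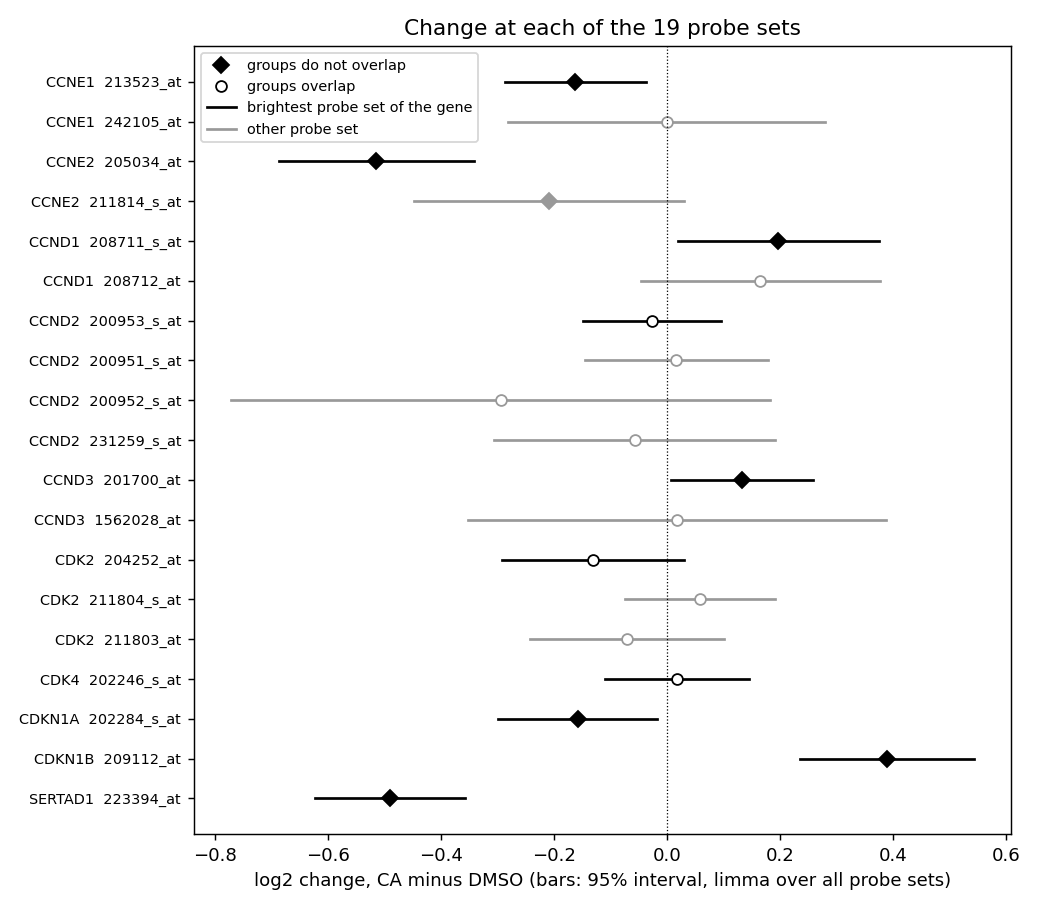
Log2 change, CA minus DMSO (horizontal axis), of the 19 probe sets, with 95% intervals from limma fitted over all probe sets, 3 arrays a group; diamonds mark probe sets whose groups do not overlap, black marks the brightest probe set of a gene. The changes run from -0.51 at a probe set of CCNE2 to 0.39 at CDKN1B.

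Across all 19 probe sets the log2 change ran from -0.51 to 0.39, and 8 lay within 0.1 of 0. All CA values lay below all DMSO values at 5 probe sets, beside 6.55% of the 54613, and above them at 3, beside 8.96%. In either direction this was 8 of 19, beside 15.5%. In a fit over all probe sets, 0.220% passed, and of the 19 the SERTAD1 probe set did so (adjusted p = 0.0350). CCNE2 (205034_at) had an adjusted p of 0.0687 in that fit and CDKN1B one of 0.102. No low-value filter was used, so all 19 probe sets were tested, and 3 of them were dimmer than the median probe set.

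The calls of CCNE2, SERTAD1 and CDKN1B depended on which arrays were kept. Without CA replicate 3, the array that stood apart, CCNE2, SERTAD1 and CDKN1B still passed, with adjusted p-values of 0.0480, 0.0353 and 0.0473 and log2 changes of -0.45, -0.50 and 0.43. Without any 1 of the other 5 arrays none of the genes passed. CCNE2 then had adjusted p-values of 0.129 without CA replicate 1, 0.0793 without CA replicate 2, and 0.168, 0.147 and 0.149 without DMSO replicates 1, 2 and 3. Leaving out 1 array gave log2 changes of -0.57 to -0.45 for CCNE2, -0.51 to -0.47 for SERTAD1 and 0.36 to 0.43 for CDKN1B.

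**Figure D3:**
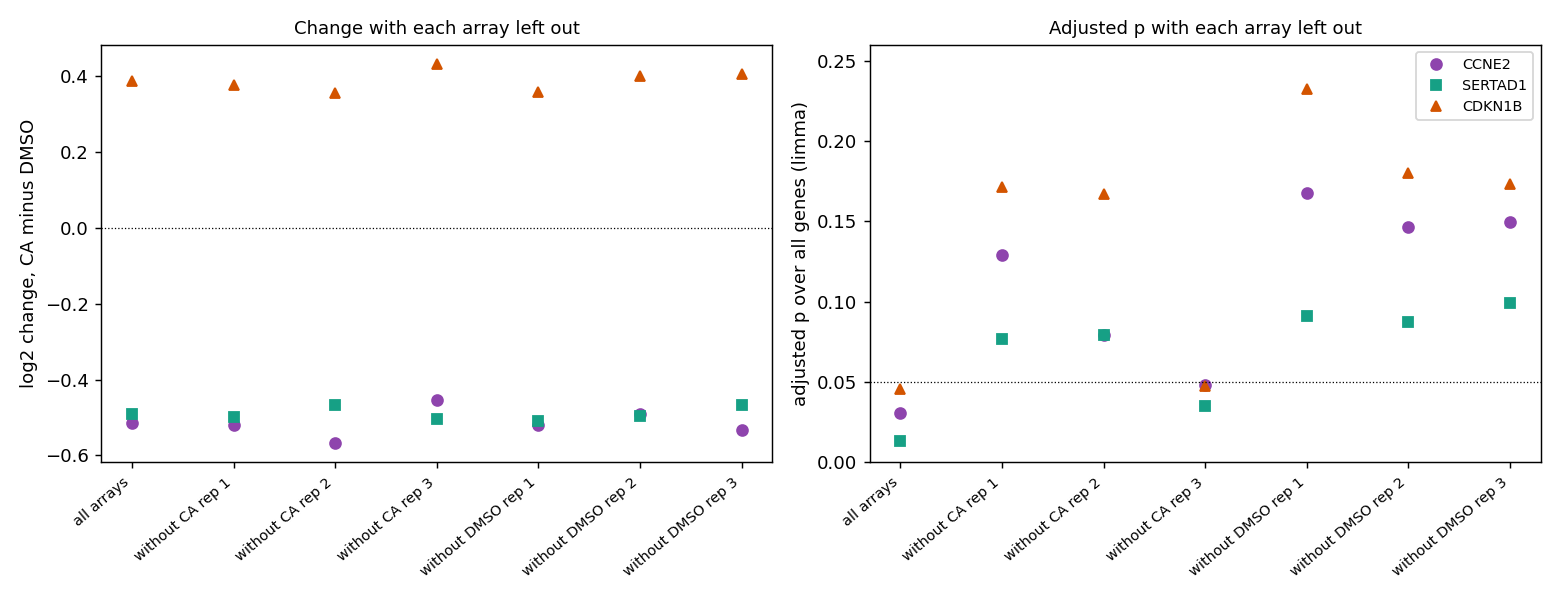
Left, log2 change (CA minus DMSO) of CCNE2, SERTAD1 and CDKN1B with all 6 arrays and with each array left out; right, the adjusted p over all genes of the same fits, with a dotted line at 0.05. The 3 genes are below the line with all arrays and without CA replicate 3, and above it in the other 5 fits, while the changes stay between -0.57 and -0.45, -0.51 and -0.47, and 0.36 and 0.43.

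Likeness over the 6 arrays was measured by the root mean square difference of log2 values, each taken relative to the gene's own DMSO mean. Closest to CCNE2 were the linker histone gene H1-10 at 0.030, HEXIM1, an inhibitor of the elongation factor P-TEFb, at 0.080, and RNF217 at 0.081. Closest to SERTAD1 were HEXIM1 at 0.046, TXNIP, the thioredoxin-interacting protein, at 0.061, and PPP1R10, a nuclear partner of the phosphatase PP1, at 0.073. Their log2 changes in CA lay between -0.50 for H1-10 and -0.43 for TXNIP. They were picked for likeness to genes that had passed, so their own calls are not counted. The measure takes in the size of the fall in CA. Whether these genes varied together among arrays of a group was not tested.

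Other genes were taken from 9 lists, called pathway lists here, with 134 different genes, of which 125 were measured. The lists of all other cyclins and all other cyclin-dependent kinases also hold genes outside G1, such as the Mediator kinases CDK8 and CDK19. The pooled values below therefore do not cover G1 genes alone. Of the 125, CCNA1 passed an adjusted p of 0.05 in limma as higher, where 0.839% of all genes did. RRM2 passed as lower, where 0.0556% did. The median log2 change of the 125 was -0.019, beside 0.0037 over all genes, with 50 above 0 and 75 below. At an unadjusted p under 0.05, 5 were higher and 10 lower, beside 7.09% and 4.50% of all genes.

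CCNA1 encodes cyclin A1, a cyclin of germ cells and of some myeloid leukaemias that pairs with CDK2 and CDK1. It had log2 values of 7.53, 7.55 and 7.55 in CA, against 6.76, 6.93 and 6.78 in DMSO. The CA arrays agreed closely and all lay above the highest DMSO array by more than the spread in DMSO. CCNA1 rose 1.64-fold (95% interval 1.49 to 1.81, adjusted p = 0.00890 in limma). The call held without CA replicate 3 (adjusted p = 0.0320) or DMSO replicate 2 (0.0382) and was lost without any 1 of the other 4 arrays, at adjusted p-values of 0.0608 to 0.0716. CCNA1 was the gene that passed of the 21 measured cyclins outside the 10 genes, where 0.839% of all genes passed as higher. The same gene is also in the list of 12 measured activators of G1 and S phase kinases, and no other gene passed there. The S phase cyclin CCNA2 had a log2 change of -0.053 (-0.24 to 0.13). Of the other 20 cyclins CCNG2 was lower at an unadjusted p under 0.05, beside 4.50% of all genes, with a log2 change of -0.24. The other CCNG2 probe sets gave log2 changes of -0.13, -0.12, -0.026 and 0.059.

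Among 16 measured kinases of the CDK family outside CDK2 and CDK4, 0 passed in limma, beside 0.895% of all genes. At an unadjusted p under 0.05, 1 was higher and 2 were lower, beside 7.09% and 4.50% of all genes. Of those 3, CDK6 was higher; it encodes the second partner of the D-type cyclins, and its log2 values were 12.26 ± 0.0018 in CA and 12.13 ± 0.015 in DMSO (SD, n = 3 each), a fold of 1.09 (1.02 to 1.17). CDK17 and CDK18 were the lower ones, at log2 changes of -0.16 and -0.31. A second CDK17 probe set went the other way, at 0.16, with overlapping groups. At their brightest probe sets CDK8 and CDK19, the kinases that cortistatin A inhibits, had log2 changes of -0.14 (-0.30 to 0.02) and -0.017 (-0.12 to 0.084). Their cyclin gene CCNC had one of 0.0061 (-0.097 to 0.11). The other CDK8 probe sets gave -0.075 and -0.084 and the other CDK19 ones -0.19, -0.14 and -0.19, with overlapping groups. A second CCNC probe set gave -0.30, with all CA values below all DMSO values. It did not pass over all probe sets (adjusted p = 0.635 in limma).

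RB, its relatives, the E2F factors and their partners were 19 measured genes, of which 0 passed in limma, beside 0.895% of all genes. At an unadjusted p under 0.05, 3 were lower and 1 was higher, beside 4.50% and 7.09% of all genes. Of the 19 changes 13 were below 0, beside 48.3% of all genes, with a median of -0.090. E2F8 had the largest positive log2 change at 0.32 (0.16 to 0.48), and E2F2 the largest negative one at -0.27 (-0.43 to -0.11). The other E2F2 probe sets gave -0.13 and 0.0088, with overlapping groups. E2F7 and LIN52 were the other lower genes at an unadjusted p under 0.05, at log2 changes of -0.20 and -0.16. RB1 had a log2 change of -0.15 (-0.33 to 0.020).

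E2F target genes of S phase entry were 26 measured genes. RRM2 was the gene that passed an adjusted p of 0.05 in limma as lower, beside 0.0556% of all genes. As higher 0 passed, beside 0.839%. Of the 26 changes 8 were above 0 and 18 below. The 4 with an unadjusted p under 0.05 were lower, beside 4.50% of all genes, and 0 were higher, beside 7.09%. RRM2, a subunit of ribonucleotide reductase, had log2 values of 11.66, 11.71 and 11.64 in CA, against 11.98, 12.08 and 12.06 in DMSO. The groups were well apart, and RRM2 fell to a fold of 0.773 (95% interval 0.713 to 0.839, adjusted p = 0.0307 in limma), with a log2 change of -0.21 at its second probe set. RRM2 did not pass with any 1 of the 6 arrays left out, at adjusted p-values of 0.0757 without CA replicate 3 to 0.164 without DMSO replicate 3. Nor did it pass after median centring of the arrays (adjusted p = 0.0602) or without _x_at, _s_at and _a_at probe sets (0.0539). In the limma fit over all probe sets its brighter probe set had an adjusted p of 0.0830 and the other one of 0.327. SLBP, which binds histone mRNA, had a log2 change of -0.19 (-0.28 to -0.09) without passing. The median of the list was -0.017.

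**Figure D4:**
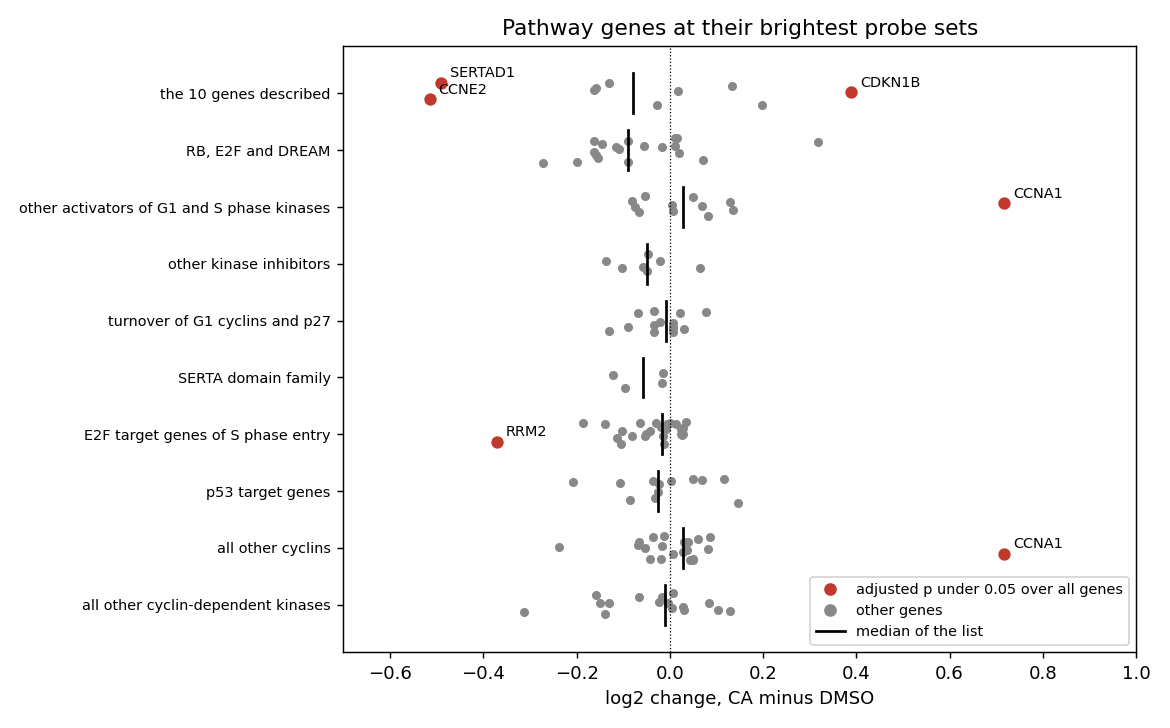
Log2 change, CA minus DMSO (horizontal axis), of the 10 genes and of the genes in 9 pathway lists at their brightest probe sets; red points have an adjusted p under 0.05 over all genes, grey points do not, and black bars are list medians. CCNA1, in 2 lists, and RRM2 are the red points outside the 10 genes.

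The remaining lists gave 0 genes that passed in limma, beside 0.895% of all genes. Of 7 other kinase inhibitors and 14 genes for the turnover of G1 cyclins and p27, 0 had an unadjusted p under 0.05. Of all genes 4.50% were lower and 7.09% higher at that limit. SKP2, whose product targets p27 for degradation, had a log2 change of 0.078 (-0.030 to 0.19), and GSK3B, a kinase that marks cyclin D1 for degradation, one of -0.13 (-0.27 to 0.012). WEE1 and CDKN2D, which restrain cyclin-dependent kinases, had log2 changes of -0.10 and -0.14.

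The 4 relatives of SERTAD1 with a SERTA domain did not pass in limma, beside 0.895% of all genes that did. At an unadjusted p under 0.05, 0 were lower and 0 higher, beside 4.50% and 7.09% of all genes. SERTAD3 had a log2 change of -0.096 (-0.19 to 0.0020), SERTAD4 one of -0.12 at a dim probe set, CDCA4 one of -0.017 and SERTAD2 one of -0.014. Whether SERTAD1 differed from them was not tested.

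Of 12 measured p53 target genes, the class to which CDKN1A belongs, 0 passed in limma, beside 0.895% of all genes. At an unadjusted p under 0.05, 1 was higher, beside 7.09% of all genes. That gene was FAS, a death receptor, at a log2 change of 0.15. The other FAS probe sets gave 0.21, 0.040, -0.026 and -0.044. MDM2, which encodes the ligase that degrades p53, had a log2 change of -0.21 (-0.44 to 0.023).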

How the data were processed

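Total RNA of 6 samples was labelled and hybridised to 1 array each, per the labels' protocols, which name 2 RNA reagents without saying which sample had which. The authors deposited 1 log2 value for each probe set and array, and the submitters' processing notes name RMA and affy. RMA includes quantile normalisation across arrays, which removes any shift common to every gene. The versions and settings were not given in the sources used here. Values were used as deposited, without 62 control probe sets. Of the others, 41091 had 1 gene symbol and were named.

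CA was compared with DMSO by limma 3.58.1 in R 4.3.3 (lmFit, eBayes, two-sided, Benjamini-Hochberg), over 19775 genes at the probe set with the highest mean, and over all 54613 probe sets. Intervals of brightest probe sets come from the first fit, those of others from the second. The steps were tested on simulated data. The labels name no separate cultures, so the spread behind each p-value is that among these 6 samples and may be technical. An exact permutation test of 3 against 3 cannot go below p = 0.1. The 10 genes and all lists were chosen with earlier results of these data known. Named in the text were all 10 genes, list genes that passed, the 2 of each pathway list with the smallest p, and the 3 most similar to CCNE2 and to SERTAD1. CDK8, CDK19 and CCNC were named as the targets of cortistatin A and their cyclin. CCNA2, RB1, E2F7, LIN52, CDK18, SERTAD2, CDCA4 and the markers named beside their ranges were chosen after their values were seen.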

Additional observations from a re-analysis of the deposited data

How the results depend on the processing

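Leaving out 1 array gave 0 to 3 of the 10 genes (reported: 3), 0 to 1 other pathway genes (reported: 2), 1 to 112 genes in all (reported: 177) and 0 to 6 probe sets in all (reported: 120). With the replicate number as a block these were 0, 0, 6 and 1. The correlation of deviations of same-numbered arrays was 0.041, 0.22 and 0.25, and the labels do not state a pairing. For arrays of different numbers it lay between -0.26 and 0.093. Whether same-numbered arrays shared an effect was not tested. With an intensity trend and robust fit, 7 pathway genes, 546 genes and 740 probe sets passed. Array weights gave 196 probe sets. Median centring left 1 pathway gene. Without dim probe sets 351 genes and 398 probe sets passed, and without _x_at, _s_at and _a_at probe sets 1 pathway gene, 74 genes and 47 probe sets. In the fit across all probe sets 1 of the 10 genes passed. Fewer arrays or more tests are part of some of these settings; the cause of the other shifts was not tested. CDKN1B did not pass after median centring (adjusted p = 0.0666) or without _x_at, _s_at and _a_at probe sets (adjusted p = 0.0716). The 6 arrays, with 3 a group, limit the precision.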
